A study of Rattus norvegicus with 20 samples.

Results

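The tenascins and the proteoglycans of the perineuronal matrix were described here in the hippocampus of newborn Gunn rats. The 9 genes, taken by symbol from the deposited count table, were the tenascins Tnc and Tnr, the lecticans Ncan, Bcan, Vcan and Acan, the link proteins Hapln1 and Hapln4, and the receptor phosphatase Ptprz1. Each matched 1 of the 32883 rows of the table, and all 9 were among the 15272 genes that passed the filter on low counts. The genes were chosen by name, without a threshold, but the set was proposed with the light and genotype fold changes of these data known. Fold changes and p-values therefore describe where each gene stood in a fit over all genes and are no independent support for the choice.

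These molecules form the matrix that fills the space between brain cells. Lecticans are chondroitin sulfate proteoglycans that bind hyaluronan at one end, where link proteins hold the bond, and tenascins at the other, so that a meshwork forms. In the developing brain Tnc and neurocan belong to a loose juvenile matrix made largely by glia and growing neurons. As circuits mature, Tnr, brevican, aggrecan and the link proteins build a denser matrix that wraps synapses and, as perineuronal nets, the bodies of many parvalbumin interneurons.

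Gunn rats inherit a failure to conjugate bilirubin. Pups with both copies mutant (jj) become jaundiced, whereas heterozygotes (Nj, also written Jj in the labels) do not. PolyA RNA of 1 hippocampal lobe per pup was sequenced at postnatal day 6 in 20 libraries, 5 in each of 4 groups: jj pups with phototherapy, jj pups without it, Nj pups with phototherapy and Nj pups without it. Treated pups had intermittent LED light from postnatal day 4, 12 h in total in spells of 3 h, and all pups were killed with pentobarbital. Sex is not among the labels, and nothing in them says whether pups shared a litter, so p-values measure the spread between these libraries.

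Libraries held 16.9 to 27.1 M reads counted to genes (M for mega). Sample titles carry a prefix of unstated meaning: J18 in both treated groups, J17 in untreated jj pups, and J13, J14 or J15 in untreated Nj pups. Light and prefix therefore cannot be told apart, and neither can genotype and prefix in untreated pups. Treated jj against treated Nj pups is the 1 comparison within a prefix. The tissue expressed hippocampal neuron markers such as Prox1 (89.4 to 135 counts per M reads, CPM) and Neurod6 (218 to 362 CPM) in every library, and Pvalb, the mark of net-bearing interneurons, at 0.33 to 1.68 CPM. Choroid plexus, which lies beside the hippocampus, entered unevenly: Ttr, its dominant transcript, ran from 3.57 to 9660 CPM and passed 1000 CPM in 3 treated jj, 1 untreated jj, 2 treated Nj and 1 untreated Nj libraries. Untreated jj library 3 had the highest Ttr and stood apart in several of the 9 genes, so values without the Ttr-rich libraries are given where they end a call.

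RefSeq holds a promoter window, from 250 bases before to 50 bases after the start site in build GRCr8, for 8 of the 9 genes: Tnc, Tnr, Ncan, Bcan, Vcan, Acan, Hapln1 and Hapln4. The windows of 4 genes are shown because the results below turn on them, first Tnc and Vcan, which stood lower in treated pups, then both link protein genes, which stood higher. Capitals mark matches on either strand to the GC box GGGCGG, the TATA box TATAAA, its variant TATATAA, the octamer ATGCAAAT and the E-box CACGTG. The Vcan window is the first of 2 listed for that gene.
Tnc (chr5:82476082-82476381, - strand): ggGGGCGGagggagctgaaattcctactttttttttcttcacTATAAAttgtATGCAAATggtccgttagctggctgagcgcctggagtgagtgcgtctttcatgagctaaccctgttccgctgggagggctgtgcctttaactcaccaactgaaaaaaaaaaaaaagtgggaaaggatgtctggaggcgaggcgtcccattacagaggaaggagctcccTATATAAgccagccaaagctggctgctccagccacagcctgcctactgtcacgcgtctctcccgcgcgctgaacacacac
Vcan (chr2:22595906-22596205, - strand): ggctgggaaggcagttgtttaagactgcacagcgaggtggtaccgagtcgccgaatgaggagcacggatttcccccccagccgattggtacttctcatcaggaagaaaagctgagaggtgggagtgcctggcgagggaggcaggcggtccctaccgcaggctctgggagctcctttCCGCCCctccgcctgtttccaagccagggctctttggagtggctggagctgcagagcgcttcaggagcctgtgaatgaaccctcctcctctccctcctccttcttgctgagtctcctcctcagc
Hapln1 (chr2:22366717-22367016, + strand): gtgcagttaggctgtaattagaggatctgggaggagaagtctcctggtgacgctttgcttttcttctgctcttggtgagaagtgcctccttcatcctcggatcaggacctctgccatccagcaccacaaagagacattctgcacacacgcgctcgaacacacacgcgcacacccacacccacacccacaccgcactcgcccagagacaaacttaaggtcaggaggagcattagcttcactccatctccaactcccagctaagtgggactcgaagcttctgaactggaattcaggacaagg
Hapln4 (chr16:19375124-19375423, - strand): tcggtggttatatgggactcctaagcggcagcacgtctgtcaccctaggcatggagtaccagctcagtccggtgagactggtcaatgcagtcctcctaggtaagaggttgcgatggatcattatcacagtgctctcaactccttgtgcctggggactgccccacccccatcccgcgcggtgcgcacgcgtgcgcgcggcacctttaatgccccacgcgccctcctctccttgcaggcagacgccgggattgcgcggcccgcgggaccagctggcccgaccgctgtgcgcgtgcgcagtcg

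The Tnc window held 4 of the 5 motifs with no overlap between them, among them TATATAA 30 bases before the start site (position -30) and the octamer at -198. Over 33469 rat windows of the same length, 3.93% held TATATAA, 1.78% the octamer, 14.2% TATAAA, 33.1% the GC box and 6.42% the E-box. The Vcan window held 1 GC box, at -74 on the opposite strand, and the Hapln1 and Hapln4 windows matched 0 of the 5 motifs. The 5 motifs were chosen after the windows had been read. A match is a run of letters here, and binding was not measured.

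The genes also lie in pairs. In the RefSeq order Vcan and Hapln1 neighbour each other on chromosome 2, and Ncan and Hapln4 on chromosome 16, with 0 protein-coding genes between them in each pair. Bcan and Hapln2, and Acan and Hapln3, are neighbours in the same way. As the values below show, both lectican members of the first 2 pairs stood lower in treated pups and both link protein members stood higher. Each of these passed in the average over genotypes, Hapln1 narrowly, and of them only Vcan did so without the Ttr-rich libraries. In the other 2 pairs Bcan was lower but Hapln2 was below the filter. Acan (log2 -0.20) and Hapln3 (log2 0.04) had the same signs as the first 2 pairs, but neither passed in the average. The pairs are thus not shown to differ from each other. Whether the order of the genes has a part in these differences was not tested.

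Phototherapy moved with the largest differences in the set. Averaged over both genotypes, 6 of the 9 genes had an adjusted p under 0.05 (edgeR, quasi-likelihood F-test with Benjamini-Hochberg adjustment over all tested genes), as 10.1% of all tested genes did. Tnc, Vcan, Ncan and Bcan fell, as did 5.74% of all genes, and Hapln1 and Hapln4 rose, as did 4.35%. In Nj pups alone 3 of the 9 passed (4.00% of all genes), Tnc and Vcan lower (2.51%) and Hapln4 higher (1.49%). In jj pups alone 1 of the 9 passed (0.164% of all genes), Tnc, which was lower (0.124%), and 0 were higher (0.0393%). The median log2 fold change over the 9 genes was -0.14 for the average, -0.18 in Nj and -0.09 in jj pups, beside medians within 0.001 of 0 over all tested genes. In the 2 genotypes, which share no library, 8 of the 9 genes had fold changes of the same sign, Ptprz1 being the exception, and 69.9% of all tested genes did. Treated pups of both genotypes carry the prefix J18 and untreated pups carry others, so the same sign does not separate light from prefix. In bulk tissue, fewer cells of a type and less RNA per cell cannot be told apart.

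**Figure D1:**
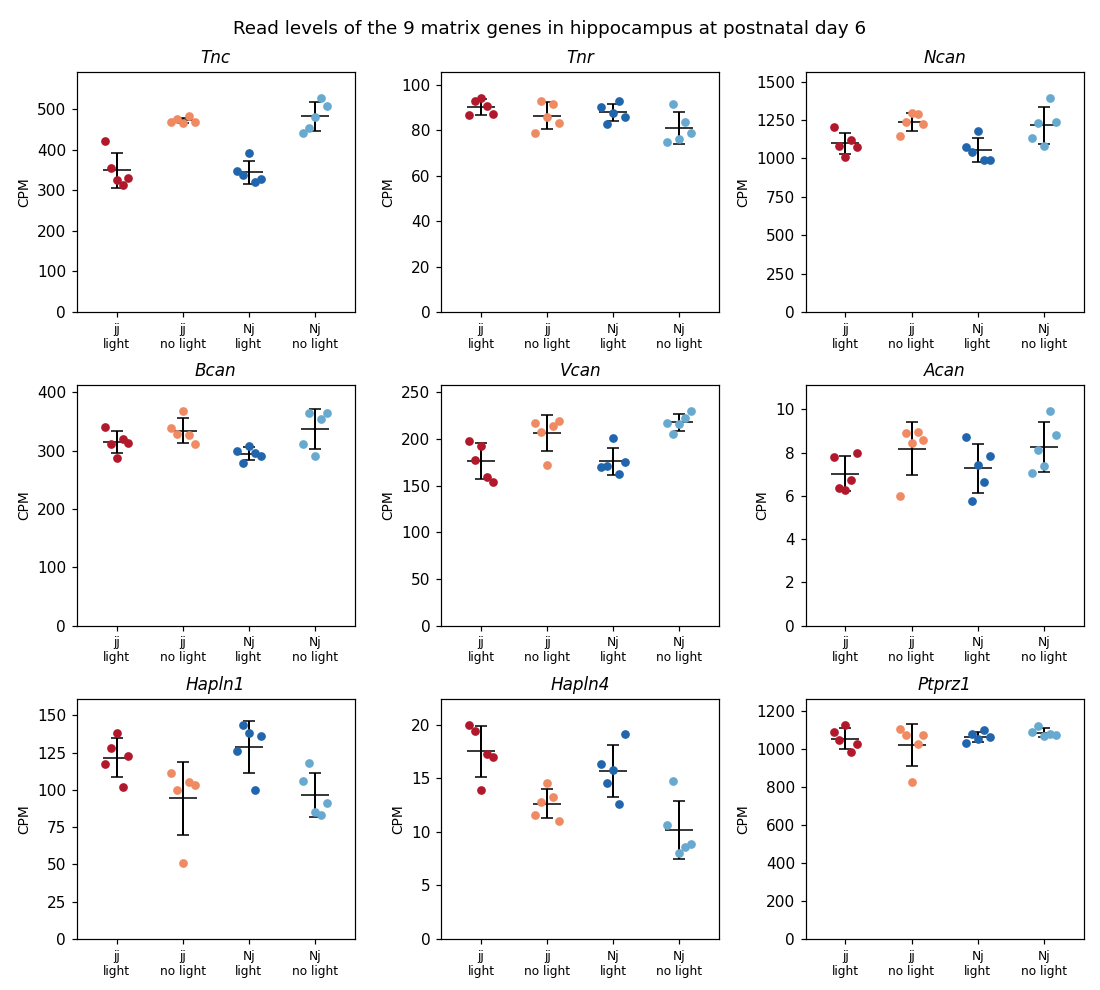
Level of each of the 9 genes in CPM (y axis, from 0) in the 4 groups (x axis), each point 1 library (n = 5 per group), with the mean as a horizontal bar and the SD as whiskers. Tnc lies lower in both light groups with no overlap (312.9 to 422.1 CPM in treated against 466.7 to 482.8 CPM in untreated jj pups), and Hapln1, Vcan and Ptprz1 each have 1 low point in untreated jj pups.

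Tnc (ENSRNOG00000058645) encodes tenascin-C, a many-armed glycoprotein of the juvenile matrix and of progenitor zones. In jj pups it stood at 422.1, 355.3, 324.4, 312.9 and 329.7 CPM with light, and at 468.1, 474.6, 466.7, 482.8 and 469.0 CPM without. In Nj pups it stood at 346.5, 336.5, 392.0, 319.7 and 327.9 CPM with light, and at 441.4, 452.3, 481.5, 528.1 and 507.1 CPM without. Every treated pup lay below every untreated pup, whatever its genotype. Of all genes, 2.96% had ranges that did not overlap for light in jj pups (1.27% higher and 1.69% lower), and 6.46% for light in Nj pups (3.07% higher and 3.39% lower). The log2 fold change was -0.44 in jj (SE 0.07, adjusted p = 0.0141) and -0.48 in Nj pups (SE 0.07, adjusted p = 0.00126). Among 15272 genes this was the lowest p for light in jj and the lowest for the average over genotypes (log2 -0.46, SE 0.05, adjusted p = 3.45e-05). The fall in Nj pups and in the average passed in each of 20 fits that left out 1 library, with log2 values from -0.53 to -0.45 and from -0.493 to -0.435. Both also passed without the Ttr-rich libraries. In jj pups the call was lost in a fit of both jj groups alone (adjusted p = 0.0641), without treated jj 2, 3 or 5 or untreated jj 4 (highest 0.0716), and with the Ttr-rich libraries left out, which kept 2 treated jj pups (log2 -0.35, adjusted p = 0.464).

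Tnr (ENSRNOG00000002468), tenascin-R, is the tenascin of the mature matrix and is made by oligodendrocyte lineage cells and some neurons. It averaged 90.4 ± 3.51 CPM in treated jj and 86.5 ± 5.82 CPM in untreated jj pups, and 87.9 ± 3.86 CPM in treated Nj and 81.0 ± 6.89 CPM in untreated Nj pups (SD, n = 5 each). The ranges overlapped and it did not pass in either genotype or in the average (log2 0.09, 95% interval 0.01 to 0.17, adjusted p = 0.148). Without untreated Nj 2 the average passed (adjusted p = 0.0306). Within libraries, reads of Tnc per read of Tnr numbered 3.43 to 4.87 in treated jj against 5.10 to 5.93 in untreated jj pups. They numbered 3.45 to 4.46 in treated Nj against 4.93 to 6.43 in untreated Nj pups. These ratios, which do not depend on the scaling of libraries, did not overlap between treated and untreated pups of either genotype, and they carry the difference already seen in Tnc.

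**Figure D2:**
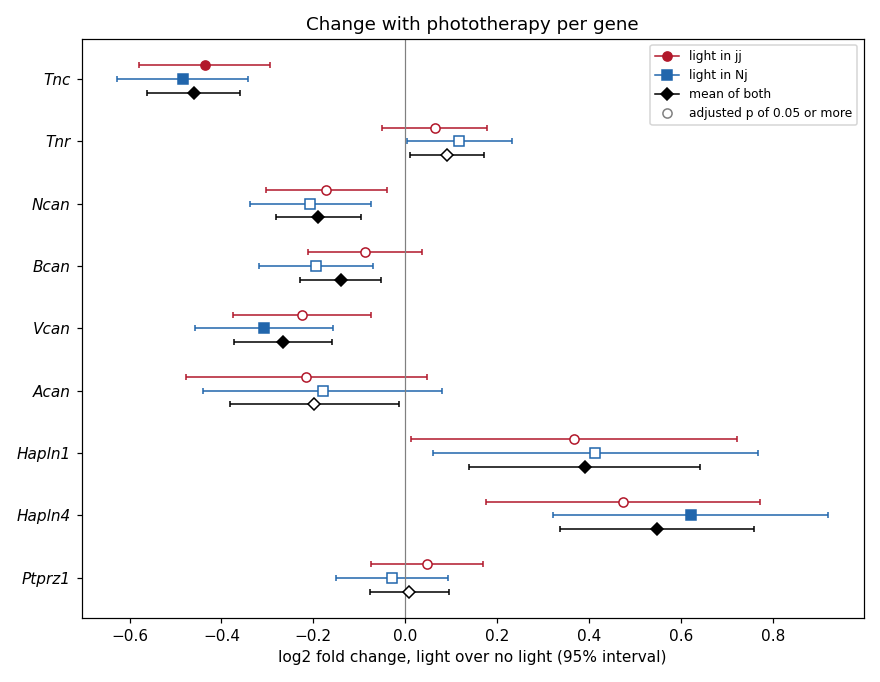
Log2 fold change of light over no light (x axis) with its 95% interval for each gene (y axis), in jj pups (circles), Nj pups (squares) and averaged over both (diamonds). Filled symbols have an adjusted p under 0.05, which holds for Tnc in all 3 comparisons, for Vcan and Hapln4 in Nj pups and the average, and for Ncan, Bcan and Hapln1 in the average.

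Vcan (ENSRNOG00000029212) encodes versican, a lectican of oligodendrocyte precursors and of growing tissue. It stood at 170.2, 170.7, 200.6, 162.4 and 175.5 CPM in treated Nj pups, and at 216.6, 204.8, 215.6, 222.3 and 229.8 CPM in untreated Nj pups. All treated Nj pups lay below all untreated Nj pups (log2 -0.31, SE 0.07, adjusted p = 0.0210). In jj pups it stood at 197.9, 177.9, 192.1, 158.9 and 154.1 CPM with light, and at 217.3, 207.9, 172.1, 213.4 and 219.1 CPM without. There the groups overlapped through untreated jj 3, the library with the most Ttr, and the difference did not pass (log2 -0.23, SE 0.07, adjusted p = 0.173). The average over genotypes passed (log2 -0.27, SE 0.05, adjusted p = 0.00228), in each of the 20 fits that left out 1 library and without the Ttr-rich libraries. The call in Nj pups also held without the Ttr-rich libraries. It was lost when untreated Nj 4, untreated Nj 5, treated Nj 2, treated Nj 4 or treated Nj 5 was left out (up to an adjusted p of 0.0768).

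Ncan (ENSRNOG00000048036), neurocan, is the lectican most abundant in the developing brain, and binds cell adhesion molecules of growing axons. It stood at 1202, 1082, 1010, 1117 and 1076 CPM in treated jj pups, and at 1143, 1235, 1293, 1289 and 1222 CPM in untreated jj pups. In Nj pups it stood at 1074, 1041, 1178, 987.1 and 989.3 CPM with light, and at 1133, 1229, 1083, 1396 and 1240 CPM without. The groups overlapped in both genotypes, and neither difference passed (log2 -0.17, adjusted p = 0.245 in jj, and -0.21, adjusted p = 0.0678 in Nj pups). In Nj pups Ncan did pass without untreated Nj 3, untreated jj 3 or treated Nj 3 (lowest adjusted p = 0.0346). Averaged over genotypes Ncan fell (log2 -0.19, SE 0.04, adjusted p = 0.00972), in each of the 20 fits without 1 library but not without the Ttr-rich libraries (log2 -0.18, adjusted p = 0.113).

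Bcan (ENSRNOG00000018798), brevican, is a lectican of astrocytes and of the matrix around synapses. It averaged 314.8 ± 18.9 CPM in treated jj and 334.7 ± 21.1 CPM in untreated jj pups, and 294.6 ± 11.0 CPM in treated Nj and 337.0 ± 34.0 CPM in untreated Nj pups (SD, n = 5 each). Groups overlapped, and neither genotype passed alone (adjusted p = 0.555 in jj and 0.0683 in Nj pups), although Nj pups did without untreated Nj 1, untreated Nj 3 or untreated jj 3 (lowest 0.0196). The average passed narrowly (log2 -0.14, SE 0.04, adjusted p = 0.0360). It passed in 7 of 20 fits without 1 library, those without untreated Nj 1 or 3, untreated jj 4 or 5, treated Nj 3 or 4 or treated jj 1, and was lost without any of the others (highest 0.0934) and without the Ttr-rich libraries (adjusted p = 0.112).

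Acan (ENSRNOG00000028992), aggrecan, is the lectican that defines perineuronal nets in the adult. It was read sparsely at this age, with 121 to 207 reads per library. It averaged 7.03 ± 0.81 CPM in treated jj and 8.18 ± 1.23 CPM in untreated jj pups, and 7.29 ± 1.14 CPM in treated Nj and 8.26 ± 1.15 CPM in untreated Nj pups (SD, n = 5 each). It did not pass in either genotype or in the average (log2 -0.20, 95% interval -0.38 to -0.01, adjusted p = 0.168). The sign was that of the other 3 lecticans, all of which passed in the average.

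Hapln4 (ENSRNOG00000049949) encodes a brain link protein known from mouse to anchor brevican around inhibitory synapses. It stood at 16.33, 14.53, 15.74, 12.59 and 19.17 CPM in treated Nj pups, and at 10.64, 14.73, 8.057, 8.557 and 8.853 CPM in untreated Nj pups. Untreated Nj 2 (prefix J14) lay within the treated range and the 3 J15 libraries were the lowest (log2 0.62, SE 0.14, adjusted p = 0.0205). In jj pups it stood at 20.02, 19.41, 13.93, 17.27 and 16.99 CPM with light, and at 11.62, 12.79, 14.53, 13.23 and 11.06 CPM without. The groups overlapped through treated jj 3 and untreated jj 3, and the difference did not pass (log2 0.47, SE 0.14, adjusted p = 0.148). The rise averaged over genotypes (log2 0.55, SE 0.10, adjusted p = 0.00189) passed in each of 20 fits without 1 library. Without the Ttr-rich libraries the values were 0.47 in Nj pups (adjusted p = 0.217) and 0.48 in the average (adjusted p = 0.0753), and leaving out untreated Nj 4, untreated Nj 5 or treated Nj 5 ended the call in Nj pups too (up to 0.0689). DESeq2 called the rise in jj pups (adjusted p = 0.0452).

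Hapln1 (ENSRNOG00000032002) encodes a link protein of perineuronal nets. It stood at 117.3, 128.0, 137.8, 102.2 and 122.5 CPM in treated jj pups, and at 111.6, 100.0, 51.25, 105.4 and 103.1 CPM in untreated jj pups. In Nj pups it stood at 125.7, 143.7, 137.8, 100.1 and 136.3 CPM with light, and at 106.2, 117.7, 84.81, 83.15 and 91.19 CPM without. Groups overlapped in both genotypes and neither difference passed (log2 0.37, adjusted p = 0.369 in jj, and 0.41, adjusted p = 0.189 in Nj pups). The lowest value of all 20 libraries was that of untreated jj 3, and without that library Nj pups passed (adjusted p = 0.0279) while the log2 value in jj pups was 0.215. The average passed narrowly (log2 0.39, SE 0.12, adjusted p = 0.0464) and in 7 of 20 fits without 1 library, those without untreated Nj 1 or 2, untreated jj 1, 3 or 5, treated Nj 4 or treated jj 4. It was lost without any of the others (highest 0.0887), with no count filter (adjusted p = 0.0788) and without the Ttr-rich libraries (log2 0.28, adjusted p = 0.154).

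**Figure D3:**
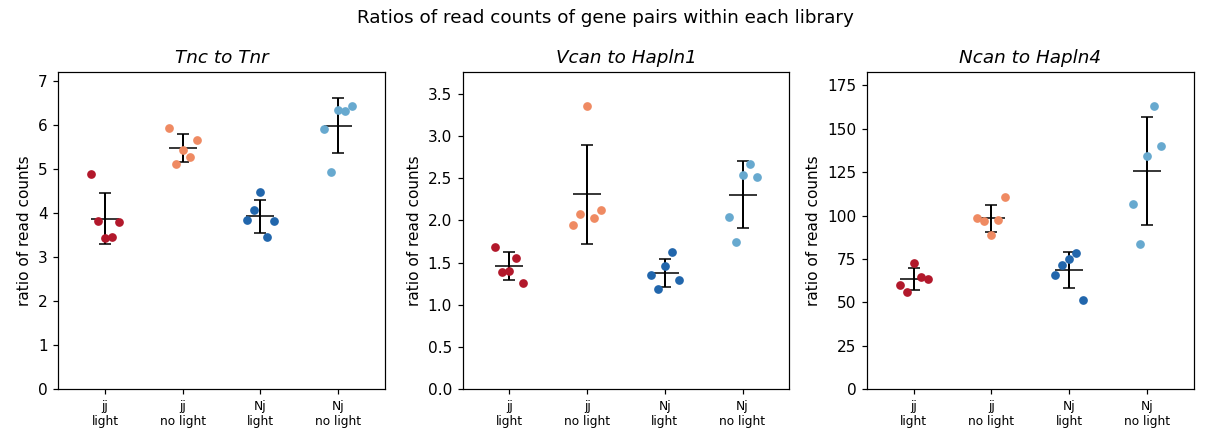
Ratio of read counts within each library (y axis, from 0) for Tnc to Tnr, Vcan to Hapln1 and Ncan to Hapln4 in the 4 groups (x axis), each point 1 library, with mean and SD (n = 5 per group). In each panel the treated libraries lie below the untreated ones of the same genotype, as with Vcan to Hapln1 (1.26 to 1.69 in treated against 1.95 to 3.36 in untreated jj pups).

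The neighbouring lectican and link protein genes can be set against each other within libraries. Reads of Vcan per read of Hapln1 numbered 1.26 to 1.69 in treated jj against 1.95 to 3.36 in untreated jj pups, and 1.19 to 1.62 in treated Nj against 1.74 to 2.67 in untreated Nj pups. Reads of Ncan per read of Hapln4 numbered 55.7 to 72.5 in treated jj against 89.0 to 110 in untreated jj pups, and 51.6 to 78.4 in treated Nj against 83.5 to 163 in untreated Nj pups. Treated and untreated pups of a genotype did not overlap in either ratio. Of all 36 pairs that the 9 genes form, 13 had ratios that did not overlap in jj pups, 13 in Nj pups and 10 in both. The share among pairs of all tested genes was not worked out, so these counts are not shown to be unusual. Of the 10 pairs without overlap in both genotypes, 6 held Tnc. The other 4 were Vcan to Hapln1, Ncan to Hapln4, Bcan to Hapln4 and Acan to Hapln4, and the last 2 are not neighbours. Reads of Ncan per read of Hapln1 overlapped in jj pups (7.33 to 10.9 in treated against 10.2 to 25.2 in untreated jj pups) but not in Nj pups (7.25 to 9.86 in treated against 10.4 to 16.8 in untreated Nj pups). Reads of Vcan per read of Bcan overlapped in both genotypes. The ratios were formed after the values of the single genes were known and are given as a description, with no test.

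Ptprz1 (ENSRNOG00000006030) encodes a receptor tyrosine phosphatase of glia whose secreted splice form, phosphacan, is itself a matrix proteoglycan that binds tenascins. It averaged 1054 ± 56.4 CPM in treated jj and 1020 ± 113 CPM in untreated jj pups, and 1064 ± 25.7 CPM in treated Nj and 1086 ± 21.6 CPM in untreated Nj pups (SD, n = 5 each). The average over genotypes was 0.01 on the log2 scale with a 95% interval of -0.08 to 0.09 (adjusted p = 0.924). Gene counts do not separate the receptor from phosphacan.

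None of the 9 genes passed the threshold between genotypes in edgeR. Untreated jj pups carry the prefix J17 and untreated Nj pups J13, J14 or J15, so genotype and prefix cannot be told apart without light. Between untreated jj and untreated Nj pups 0 of 9 passed, 1 had an unadjusted p under 0.05, and DESeq2 called 0 of 9. That 1 gene was Hapln4, at 12.7 ± 1.37 CPM in untreated jj and 10.2 ± 2.73 CPM in untreated Nj pups (SD, n = 5 each; log2 0.31, 95% interval 0.01 to 0.61, adjusted p = 0.775). For Tnc the log2 difference was -0.03 with an interval of -0.17 to 0.11. Of all tested genes 0 passed in edgeR, 972 (6.36%) had an unadjusted p under 0.05, and DESeq2 called 1. CPM ranges overlapped for all 9, and 1.00% of all genes had ranges that did not (0.478% higher and 0.524% lower).

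Between treated jj and treated Nj pups, which share the prefix J18, 0 of 9 passed in edgeR, 0 had an unadjusted p under 0.05 and DESeq2 called 0 of 9. Tnc differed by 0.02 (95% interval -0.12 to 0.16), Vcan by 0.00 (-0.15 to 0.15) and Hapln1 by -0.08 (-0.44 to 0.27) on the log2 scale. Of all tested genes 0 passed in edgeR, 1011 had an unadjusted p under 0.05, and DESeq2 called 2. CPM ranges overlapped for all 9, and 1.20% of all genes had ranges that did not (0.596% higher and 0.609% lower). The median over the 9 genes was 0.02, beside 0.003 over all genes.

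The change with light did not differ detectably between jj and Nj pups. The interaction passed for 0 of 9 genes in edgeR (0 at an unadjusted p under 0.05, 0 by DESeq2), with an adjusted p of 1.00 each, and for 0 of all tested genes, of which 521 had an unadjusted p under 0.05. For Tnc the light change in jj minus that in Nj pups was 0.05 on the log2 scale (95% interval -0.15 to 0.25) and for Vcan 0.08 (-0.13 to 0.30). The intervals of Hapln4 (-0.57 to 0.27) and Hapln1 (-0.55 to 0.45) leave room for differences as large as the light change itself. A call in Nj pups without one in jj pups, as for Vcan and Hapln4, is thus not shown to be a difference between genotypes.

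Other genes of the same matrix were counted by list for light averaged over genotypes, where 4.35% of all tested genes rose and 5.74% fell. The lists were chosen with earlier results of these data known, so their shares are a description and no test. Of 20 tested genes that build chondroitin sulfate chains, 1 rose and 1 fell. Csgalnact1, which starts the chain, was at 31.6 ± 2.73 CPM in treated Nj and 26.2 ± 1.77 CPM in untreated Nj pups (SD, n = 5 each; log2 0.27, adjusted p = 0.0336, and 0.19 in the average, adjusted p = 0.0154). Chst15, which adds a second sulfate to the chain, fell in the average (log2 -0.19, adjusted p = 0.0328). The median of the list was -0.01, beside 0.00 for all genes.

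Of 9 tested genes of hyaluronan turnover 3 fell in the average (33.3%, against 5.74% of all genes). As the list was chosen with earlier results known, this share is no test. In Nj pups alone 0 of the 9 fell, where 2.51% of all genes did, and in jj pups alone 0 fell, where 0.124% did. The 3 were the hyaluronan synthase Has2 (log2 -0.35, adjusted p = 0.0319), the surface hyaluronidase Cemip2 (log2 -0.19, adjusted p = 0.00472) and the hyaluronidase Hyal2 (log2 -0.16, adjusted p = 0.0317). Has2 had 8.74, 7.65, 6.63, 6.43 and 6.66 CPM in treated jj against 8.74, 8.55, 7.24, 8.75 and 8.30 CPM in untreated jj pups. It had 5.98, 5.77, 8.93, 4.30 and 7.98 CPM in treated Nj against 11.31, 9.91, 8.06, 8.66 and 8.85 CPM in untreated Nj pups. Of 19 proteases and inhibitors, the membrane-bound metalloproteinases Mmp15 (log2 -0.15, adjusted p = 0.0325) and Mmp24 (log2 -0.16, adjusted p = 0.00947) fell in the average and 0 rose. Proteases known to cut lecticans, among them Adamts4 and Adamts5, were in this list and did not pass.

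Of 21 receptors and ligands, Cntn1, a neuronal adhesion molecule that binds Tnr and Ptprz1, rose in the average (log2 0.10, adjusted p = 0.0378), and Ptprf, a receptor phosphatase of the family that binds chondroitin sulfate, fell (log2 -0.18, adjusted p = 0.0129). Of 9 other brain proteoglycans, Agrn, the heparan sulfate proteoglycan agrin, fell in Nj pups (574.6 ± 42.4 CPM in treated and 686.5 ± 50.9 CPM in untreated Nj pups, SD, n = 5 each; log2 -0.26, adjusted p = 0.0127) and in the average (log2 -0.23, adjusted p = 0.00100). In jj pups, where Agrn did not pass (adjusted p = 0.110), it averaged 593.6 ± 38.2 CPM with light and 683.2 ± 8.59 CPM without. Of the remaining tenascins and link proteins, Tnn (log2 0.09 in the average) and Hapln3 (0.04) were near 2 CPM and did not pass. Hapln2 had 0 to 4 reads per library and was below the filter, and no row of the count table carried the symbol Tnxb. Of the named genes of these lists, Agrn, Cemip2, Csgalnact1, Mmp24 and Ptprf kept their call in the average in each of 20 fits without 1 library. Without the Ttr-rich libraries Agrn and Cemip2 passed in the average and the other named genes did not (Ptprf had the lowest adjusted p, 0.0544, and Cntn1 the highest, 0.285). The others passed in 9 (Mmp15), 10 (Chst15 and Has2), 11 (Hyal2) and 12 (Cntn1) of the 20 fits without 1 library. In Nj pups alone Agrn lost its call without untreated Nj 5 (adjusted p = 0.0532), and Csgalnact1 when any of untreated Nj 1, 4 and 5 and treated Nj 2, 4 and 5 was dropped (up to 0.0982). Neither passed there without the Ttr-rich libraries (adjusted p = 0.0821 for Agrn and 0.110 for Csgalnact1), nor did Csgalnact1 when untreated Nj pups were limited to prefix J15 (0.0630). Between genotypes and in the interaction 0 genes of these lists passed in edgeR.

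Markers of cell types were counted in the same way, against the 4.35% of all tested genes that rose and the 5.74% that fell in the average. These lists too were chosen with earlier results of these data known, so the shares are a description and no test. Calls of marker genes were not followed under the alternatives of the closing section. Of the markers, 5 of 8 tested immature neuron genes (62.5%) fell and 0 rose (median log2 -0.24), among them Draxin (log2 -0.53). Summed over the list they ran from 5757 to 6471 CPM in treated jj and 6338 to 7596 CPM in untreated jj pups, and from 5658 to 6806 CPM in treated Nj and 7068 to 7989 CPM in untreated Nj pups. Of 11 radial glia and progenitor genes 4 (36.4%) fell and 0 rose (median -0.12), among them Nes (log2 -0.42) and Vim (log2 -0.29). Their sums overlapped in both genotypes. They ran from 803.7 to 1181 CPM in treated jj and 911.9 to 1345 CPM in untreated jj pups. In Nj pups they ran from 807.2 to 963.6 CPM with light and from 875.8 to 1201 CPM without. Of 10 astrocyte genes 4 (40.0%) rose and 1 fell (median 0.12), of 9 interneuron genes 4 (44.4%) rose and 1 fell (median 0.08), and of 7 oligodendrocyte precursor genes 0 passed (median 0.03). Of 8 microglia genes 3 (37.5%) rose and of 6 myelinating oligodendrocyte genes 1 rose, with 0 lower in both lists. Of 10 hippocampal excitatory neuron genes 1 rose and 2 fell (median -0.02). Of 7 genes of endothelium and pericytes 1 rose and 1 fell (median -0.01). In jj pups alone 1 immature neuron gene fell (0.124% of all genes), and 0 genes of the other lists above passed (0.0393% of all genes rose). In Nj pups alone 4 immature neuron and 2 radial glia genes fell (2.51% of all genes). There 3 astrocyte genes rose and 1 fell, and 2 interneuron genes, 3 microglia genes and 1 gene of endothelium and pericytes rose (1.49% of all genes). The part of these cell types in the matrix results was not tested.

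Meninges and choroid plexus, the tissues beside the hippocampus, varied widely between libraries of a group, and their summed levels overlapped between treated and untreated pups. Of 8 tested meningeal fibroblast genes 0 passed, with a median log2 of -0.63 for light in jj and -0.23 in Nj pups. The 9 genes listed summed to 269.3 to 520.4 CPM in treated jj and 284.3 to 687.0 CPM in untreated jj pups, and to 315.0 to 525.9 CPM in treated Nj and 314.9 to 522.0 CPM in untreated Nj pups, with Ogn at 0 reads in 18 of 20 libraries. Of 9 choroid plexus genes 0 passed and all 9 had positive fold changes for light in both genotypes (median 1.03 in jj and 0.33 in Nj pups). All 9 were also positive for jj against Nj pups, untreated (median 0.37) and treated (median 1.14). A shared sign of these genes is therefore not particular to light. The choroid plexus sums ran from 79.0 to 8243 CPM in treated jj and 20.8 to 10300 CPM in untreated jj pups, and from 34.5 to 4269 CPM in treated Nj and 17.6 to 4479 CPM in untreated Nj pups. Without the Ttr-rich libraries Tnc and Vcan were the 2 of the 9 matrix genes that passed in the average. That fit left out 7 of the 20 libraries, and its log2 values for Ncan, Hapln1 and Hapln4 are given above. Whether calls were lost through fewer libraries or less choroid plexus was not tested.

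Among pups of the same group the 9 genes did not vary as 1 block. After the mean of each group was subtracted from log2 CPM, Hapln1 and Ptprz1 varied together most closely over the 20 libraries (Pearson's r = 0.81, Spearman's rho = 0.68, permutation p = 0.00972 and 0.00571). Adjusted over the 36 pairs these were 0.0700 and 0.0994, and 0 of 36 pairs passed. Without the 2 libraries farthest in Hapln1, r was 0.72. Tnc went with Ncan (r = 0.69, rho = 0.60, permutation p = 0.00296 and 0.0138, adjusted 0.0657 and 0.0994, r = 0.55 without the 2 farthest libraries). Tnc also went with Vcan (r = 0.61, rho = 0.59, permutation p = 0.00562 and 0.0136, adjusted 0.0657 and 0.0994), where r was 0.38 without the 2 farthest, so that this relation rested largely on them. Ncan went with Bcan (r = 0.69, rho = 0.70, permutation p = 0.00373 and 0.00342, adjusted 0.0657 and 0.0994, r = 0.71 without the 2 farthest libraries). Ncan went with Acan too (r = 0.62, rho = 0.62, permutation p = 0.00730 and 0.00842, adjusted 0.0657 and 0.0994, r = 0.595 without the 2 farthest libraries). For Vcan and Ptprz1 r was 0.65 and rho 0.53 (permutation p = 0.0276 and 0.0391, adjusted 0.166 and 0.235, r = 0.41 without the 2 farthest libraries). Vcan and its neighbour Hapln1, which stood on opposite sides of 0 for light, had r = 0.57 and rho = 0.41 within groups (permutation p = 0.0362 and 0.0760, adjusted 0.186 and 0.342, r = 0.36 without the 2 farthest libraries).

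**Figure D4:**
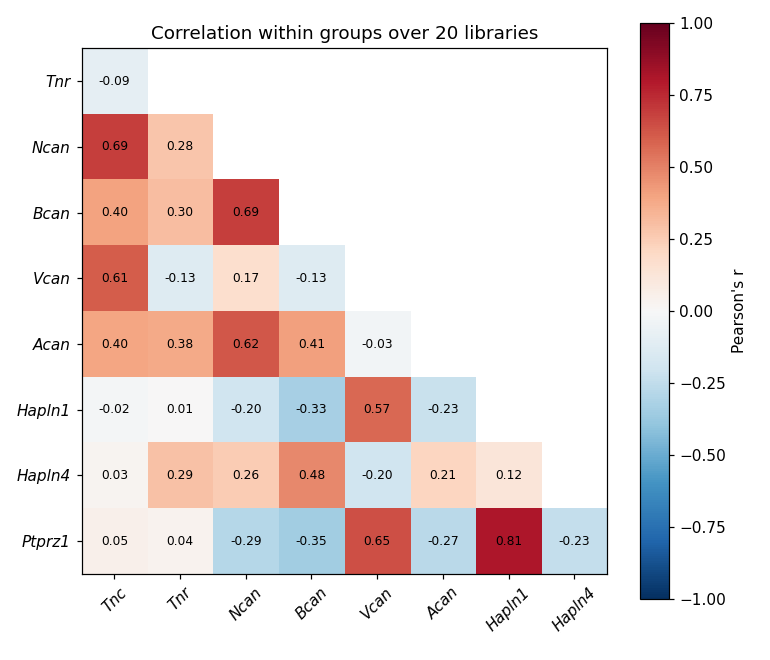
Pearson's r of log2 CPM between each pair of the 9 genes over 20 libraries after the mean of each group was subtracted (rows and columns are genes, colour from -1 to 1). The highest r was 0.81, for Hapln1 with Ptprz1. The lecticans Ncan, Bcan and Acan had positive r among themselves, lowest for Bcan with Acan (0.41, permutation p = 0.0874, adjusted 0.32). Vcan was near 0 with Bcan and Acan (-0.13 and -0.03). No pair passed after adjustment over all pairs.

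The genes most like each of the 9 in this within-group pattern were taken from 12162 named genes over the 20 libraries, by Pearson's r and as a description. For Ptprz1 they were Ptn (r = 0.97), Polr2m (0.95) and Zfr (0.95), and for Hapln1 Gpm6b (0.96), Gabrg1 (0.95) and Dmd (0.93). For Tnc they were Ankrd11 (0.82), Ptx3 (0.79) and Plxna2 (0.79), and for Tnr Pi16 (0.82), Rasd1 (0.78) and Zfp831 (0.75). For Ncan they were Mdga1 (0.91), Kndc1 (0.90) and Nfasc (0.90), and for Bcan Ckb (0.93), Xrcc1 (0.92) and Ptprn (0.90). For Vcan they were Dock11 (0.92), Mir568 (0.88) and Ska1 (0.87), for Acan Ankrd16 (0.83), Dipk1b (0.80) and Ndst1 (0.77), and for Hapln4 they included Wipf3 (0.84) and Kcnab2 (0.82). Of the 27 places, 3 for each gene, 0 went to another of the 9. With 12162 genes to choose from, this count says little about whether the 9 vary together. Untreated jj 3 stood far from its group in Ptprz1, Hapln1 and Vcan, and r without that library was not worked out for these likenesses.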

How the data were processed

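PolyA libraries of hippocampus from 20 rat pups were compared in 4 groups of 5, defined by genotype and phototherapy from the labels. The authors deposited raw read counts per Ensembl rat gene, with no normalisation; the columns carry the sample titles. Per the submitters' processing notes, FastQC, TopHat2 2.0.13, Subread and edgeR were used. Those notes name a mouse build while the gene IDs are of rat, the strand setting is not given in the sources used here, and no gene coordinates are given. Reads of overlapping or antisense genes cannot be told apart.

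From the counts, edgeR 4.0.16 in R 4.3.3 was run with filterByExpr by group (15272 of 32883 genes), TMM scaling, 1 mean per group over all 20 libraries, and robust quasi-likelihood fits with legacy estimates. F-tests were two-sided, adjusted by Benjamini-Hochberg over all tested genes with a threshold of 0.05. CPM use TMM-scaled library totals. The 95% intervals come from the fit's SE and degrees of freedom. The fit was tested on simulated data. Correlations used 100000 permutations of libraries within groups. DESeq2 1.42.0 and the other alternatives are in the closing section. Promoter windows are of RefSeq, build GRCr8. Members and gene lists were chosen with earlier results of these data known. All 9 genes are named, and from each pathway list up to 6 genes past the threshold by lowest p, plus the other tenascins and link proteins. From marker lists up to 3 are named. Total counts of 16.9 to 27.1 M per library set the precision, which covers reads and not molecules. One gene that the rule on likeness names is not reported here.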

Additional observations from a re-analysis of the deposited data

Results flagged for a closer look

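In the 88 sets of 5 libraries formed by the 22 named genes and 4 groups, 8 held a library far from the other 4 (Dixon's ratio above 0.71). Chance gives about 1 in 20 sets if values are normal and sets independent. Genes that vary together and the few reads of Hapln2 do not meet this, so the number of flags is no test. Of the 8, 4 were untreated jj library 3, which also had the highest Ttr: Hapln1 at 51.25 CPM (others 100 to 111.6), Ptprz1 at 825.6 CPM (others 1025 to 1105), Vcan at 172.1 CPM (others 207.9 to 219.1) and Mmp15 at 115.0 CPM (others 89.9 to 96.2). The part of neighbouring tissue in these values was not tested.

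Acan stood at 6.01 CPM in untreated jj 1 (others 8.43 to 8.96). Ptprf stood at 266.3 CPM in treated jj 4 (others 223.6 to 229.2). Hapln2, read at most 4 times per library, stood at 0.20 CPM in treated Nj 4 and at 0 CPM in untreated Nj 4 (others 0.04 to 0.05).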

How the results depend on the processing

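Alternatives were median-ratio size factors, no filter on counts, a minimum mean count of 10, newer quasi-likelihood estimates, DESeq2, the compared groups alone, no libraries above 1000 CPM of Ttr, J15 as the only untreated Nj libraries, and leaving out each library. No paired analysis was possible because the labels give no replicate number that groups share. The cause of the changes below was not tested.

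For light in Nj pups (611 genes, 3 of the 9), DESeq2 called 1009 genes and 5 of the 9 (Ncan and Bcan added), and 112 genes passed without the Ttr-rich libraries; leaving out 1 library gave 152 (untreated Nj 4) to 1070 genes (untreated jj 3, outside the comparison) and 1 to 6 of the 9. For light in jj pups (25 genes, 1 of the 9), DESeq2 called 271 and 2 of the 9 (Hapln4 added), the compared groups alone gave 3 and 0, no Ttr-rich libraries 0 and 0, and leaving out 1 library 0 (untreated jj 4) to 75 genes (untreated Nj 2) and 0 to 1 of the 9. For the average (1541 genes, 6 of the 9), no Ttr-rich libraries gave 424 genes and 2 of the 9, and leaving out 1 library 1020 to 1697 genes and 4 to 6 of the 9. For genotype and interaction, 0 of the 9 passed under each alternative; DESeq2 called 1 gene in untreated and 2 in treated pups, and leaving out 1 library gave 0 to 1 genes in each.

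Over the 9 genes in 6 comparisons and the named pathway genes for light, 2247 values kept direction and side of the threshold, 46 gained a call, 116 lost one and 49 changed sign. The 6 genes called for light averaged over genotypes kept their direction for light, in each genotype and in the average, under each alternative. Changes of sign were, on the log2 scale and without the Ttr-rich libraries, Hapln3 for light in jj (0.0962), Ncan (-0.028) and Hapln1 (0.0787) between untreated genotypes, Hapln1 (0.0699) and Ptprz1 (0.0615) between treated ones, and Hapln4 in the interaction (0.00945). With J15 alone they were Ncan (-0.00843) and Hapln1 (0.124) between untreated genotypes and Acan in the interaction (0.0468). Leaving out 1 library gave, in the interaction, Acan -0.129 to 0.0388, Hapln1 -0.2 to 0.0211, Ncan -0.0148 to 0.0801 and Tnc -0.0229 to 0.1. Between treated genotypes it gave Acan -0.126 to 0.0227, Ptprz1 -0.0381 to 0.015, Tnc -0.0556 to 0.0726 and Vcan -0.0391 to 0.0578. Between untreated genotypes it gave Acan -0.069 to 0.0802, Bcan -0.0602 to 0.0224, Hapln1 -0.104 to 0.121, Ncan -0.0171 to 0.074 and Tnc -0.0631 to 0.00134. For light it gave Hapln3 -0.0175 to 0.0928 in the average and -0.203 to 0.0204 in jj, Ptprz1 -0.0213 to 0.0283 in the average and -0.0163 to 0.0797 in jj, and Tnn -0.0906 to 0.137 in Nj pups.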
